A study of Mus musculus with 12 samples.

Results

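The miR-29 family was followed through mouse T cell development by reading its 3 members, mmu-miR-29a, mmu-miR-29b and mmu-miR-29c, in sequenced small RNA. They are written miR-29a, miR-29b and miR-29c from here on. The members were taken by the names that the tables of mature miRNAs give them, and they are 3 of the 548 miRNA names with a read in any of 12 libraries. miRNAs of this family share their seed, the stretch near the 5' end that pairs with target messages, and are made from a pair of clusters on different chromosomes, each with its own copy of miR-29b. The family is known for repressing collagens and other extracellular matrix genes, the DNA methyltransferases Dnmt3a and Dnmt3b and the survival factor Mcl1. In T cells it is also known to restrain interferon gamma and the transcription factors T-bet and Eomes.

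Each population is represented by 1 library from C57BL/6 mice. MEF are embryonic fibroblasts from E14.5 embryos. From bone marrow came LSK cells (negative for lineage markers, Sca+ and cKit+), MPP cells (LSK that were also CD135+ and CD106+), LMPP cells (LSK that were CD135+ but CD106-) and ProB cells (B220+, IgM- and CD43hi). The thymus gave DN1 (CD44+ CD25-), DN2 (CD44+ CD25+) and DN3 (CD44- CD25+), which all lacked CD4, CD8 and CD3, and DN4, which was CD44- CD25- with low CD3. DP cells carried both CD4 and CD8 with low CD3. CD4SP and CD8SP cells kept one of these co-receptors and were CD3hi and CD24lo. All thymic populations were CD90+. No agent or mutation separates the groups, and the labels state neither the age of the adult mice nor how many animals went into a library.

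Levels are in RPM, the reads of a miRNA per 1000000 reads given a mature miRNA name in the same library. DN4 was the shallowest library with 63386 such reads and DN3 the deepest with 4572864. Seeing no read still allows a level of up to 47.3 RPM in the shallowest and 0.656 RPM in the deepest, which is what 3 reads are worth there. The libraries also differed in where reads begin. Most reads of MEF, DN4 and DP began at base 2 of the mature miRNA (96.7% to 98.8% of reads) and those of DN3 at base 1 (98.9%), while the other 8 libraries began at base 3 (96.3% to 98.6%). The 5 mesenchymal marker miRNAs summed to 21959 RPM in MEF, against 6.34 RPM (CD4SP) to 600.5 RPM (LMPP) in the blood-cell libraries. The blood-cell markers miR-142-3p and miR-142-5p summed to 159 RPM in MEF, against 8207 RPM or more in every blood-cell library. miR-181a, the T lineage marker, was highest in DP, where it took 553104 RPM, more of the library than all other miRNAs together. Myeloid miR-223 stood at 17609 RPM in DN1, above all 11 other libraries.

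The RefSeq tables (GRCm38) hold all 3 mature sequences and all 4 hairpins. The mature sequences are shown because the members differ at so few bases that this decides how well they can be told apart. Capitals mark the seed, bases 2 to 8:

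miR-29a: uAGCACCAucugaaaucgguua

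miR-29b: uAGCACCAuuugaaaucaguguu

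miR-29c: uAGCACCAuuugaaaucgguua

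Of the 1674 mouse mature sequences in the table, these 3 alone carry this seed. Positions counted from the 5' end separate the members as follows. miR-29c differs from miR-29a by C10U and nothing else. miR-29b differs from miR-29a by C10U, G18A, U21G and A22U, and is 1 base longer. A read that stops before base 18 could not tell miR-29b from miR-29c, but no listed read was shorter than 18 nt.

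The hairpins show where each member is cut from. Capitals mark the 5p arm and, after the loop, the 3p arm, which is the member itself:

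Mir29a: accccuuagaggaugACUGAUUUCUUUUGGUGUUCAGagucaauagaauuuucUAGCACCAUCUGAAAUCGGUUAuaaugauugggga

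Mir29b-1: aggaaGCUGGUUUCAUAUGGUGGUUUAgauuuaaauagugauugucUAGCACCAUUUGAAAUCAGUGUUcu

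Mir29b-2: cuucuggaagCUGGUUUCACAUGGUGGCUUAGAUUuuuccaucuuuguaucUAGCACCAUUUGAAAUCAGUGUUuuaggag

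Mir29c: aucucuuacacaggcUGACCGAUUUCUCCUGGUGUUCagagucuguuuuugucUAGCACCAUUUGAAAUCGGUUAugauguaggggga

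In GRCm38, Mir29a lies at chr6:31062660-31062747 and Mir29b-1 at chr6:31063023-31063093, both on the minus strand with 275 bases between them. Mir29b-2 at chr1:195037040-195037120 and Mir29c at chr1:195037547-195037634 lie on the plus strand, 426 bases apart. In GENCODE M21 the chromosome 1 pair falls within an exon of the noncoding transcript A330023F24Rik on the same strand, and over an exon of Cd46, a complement regulator, on the opposite strand. The 2 bases at one end of Mir29b-1 overlap an exon of the long noncoding RNA Gm27019 on the same strand, and no other annotated gene overlaps Mir29a. Both copies of miR-29b give the same mature sequence, so reads of miR-29b cannot be assigned to a cluster. miR-29a comes from chromosome 6 alone and miR-29c from chromosome 1 alone.

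The family was present in every library and highest in DN1 among the blood-cell libraries. The 3 members summed to 59902 RPM in MEF. In bone marrow LSK held 25003 RPM, MPP 30411, LMPP 26544 and ProB 11473. In the thymus the sum was 75517 RPM at DN1, 24981 at DN2, 30096 at DN3 and 28934 at DN4, then 7668 at DP, 13084 at CD4SP and 17355 at CD8SP. DN1 thus stood apart from a band of 6 libraries between 24981 and 30411 RPM, and DP was lowest. With the 3 most abundant miRNAs (miR-16, miR-181a and miR-20a) left out of the totals, ProB was the lowest library, at 15858 RPM. Neighbours in the order of levels had overlapping 95% Poisson intervals for MPP and DN3, DN3 and DN4, and LSK and DN2. These and all later intervals cover counting error only, since reads from PCR are not independent molecules and no population has a second library. In such pooled cells, fewer cells with the miRNA and less miRNA per cell cannot be told apart.

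**Figure D1:**
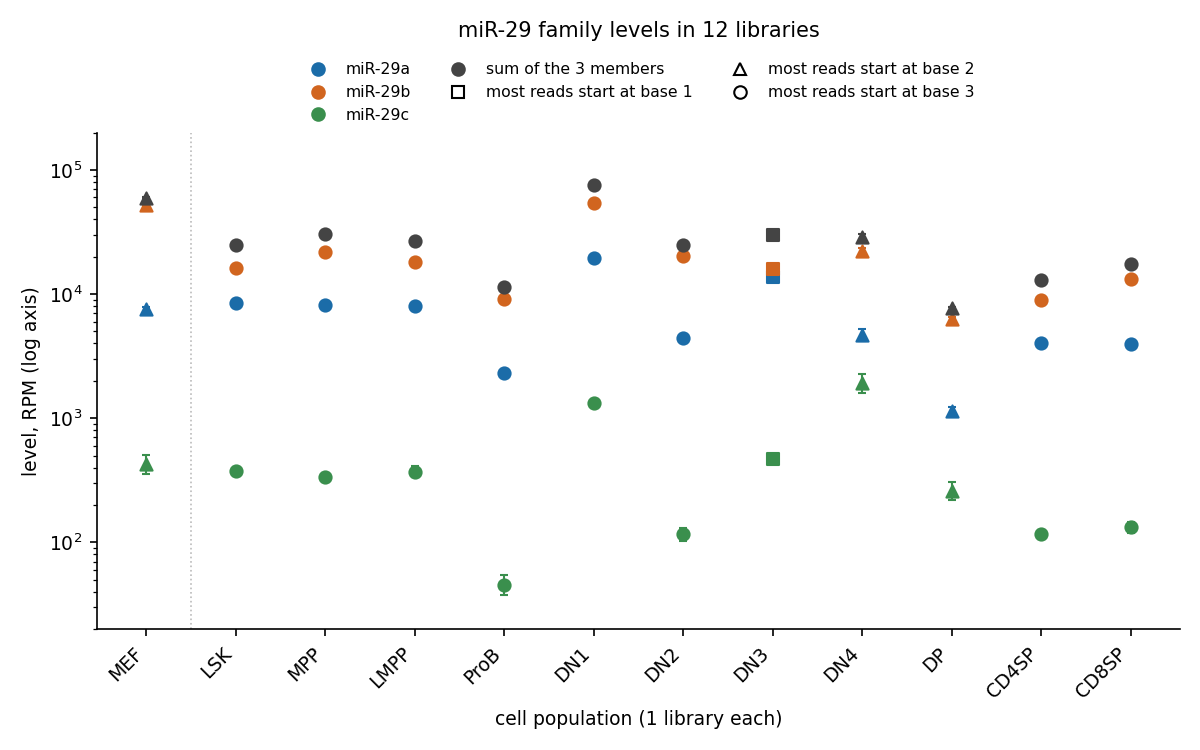
Level of each member and of their sum (RPM, log axis) in the 12 libraries, with 95% Poisson intervals and with the marker shape giving the base at which most reads of the library start. The sum runs from 7668 RPM in DP to 75517 RPM in DN1, and miR-29c is the lowest member in every library.

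miR-29b was the main member everywhere. It stood at 51878 RPM in MEF. In bone marrow LSK had 16163 RPM of it, MPP 21946, LMPP 18121 and ProB 9115. In the thymus its level was 54555 RPM at DN1, 20454 at DN2, 15813 at DN3 and 22347 at DN4, then 6272 at DP, 8894 at CD4SP and 13247 at CD8SP. It was the third most abundant of all miRNAs in MEF and in DN1, and between rank 9 and rank 26 in the other libraries. Among the blood-cell libraries DN1 was 8.70-fold above DP (95% interval 8.40 to 9.01), and without DN1 the span from lowest to highest was 3.56-fold. The only neighbours in its order whose intervals overlapped were DN4 and MPP.

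miR-29a varied more. It stood at 7598 RPM in MEF, at 8463, 8131 and 8052 RPM in LSK, MPP and LMPP, and at 2313 RPM in ProB. Thymic levels were 19641 RPM at DN1, 4410.4 at DN2, 13812 at DN3 and 4669.8 at DN4, then 1136 at DP, 4074 at CD4SP and 3976 at CD8SP. DN1 and DN3 were its highest libraries and DP its lowest, with DN1 17.3-fold above DP (16.0 to 18.8). The MPP and LMPP intervals overlapped, as did those of LMPP and MEF, DN4 and DN2, and CD4SP and CD8SP.

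miR-29c was scarce. It stood at 426 RPM in MEF, at 377, 335 and 370.2 RPM in LSK, MPP and LMPP, and at 45.2 RPM in ProB. Thymic levels were 1321 RPM at DN1, 116 at DN2, 471 at DN3 and 1917 at DN4, then 259.6 at DP, 117 at CD4SP and 132 at CD8SP. DN4 rested on 121.5 reads, where a sequence listed under 2 names counts by its share, and DN1 on 4961 reads. The DN4 and DP values come mostly from short reads with a late start. Intervals overlapped along the run of DN3, MEF, LSK, LMPP and MPP, and along that of CD8SP, CD4SP and DN2.

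The mix of members also moved. miR-29b made up 86.6% of family reads in MEF (95% Clopper-Pearson interval 86.1 to 87.1), and in the blood-cell libraries from 52.5% in DN3 (52.3 to 52.8) to 81.9% in DN2 (81.6 to 82.2). miR-29a made up 12.7% in MEF (12.2 to 13.2), and from 14.8% in DP (13.7 to 15.9) to 45.9% in DN3 (45.6 to 46.2). DN3 was the library where miR-29a came closest to miR-29b, with 1.14 reads of miR-29b per read of miR-29a (1.13 to 1.16). That ratio was 4.64 in DN2 (4.54 to 4.74) and 4.79 in DN4 (4.22 to 5.44). These shares do not depend on the library total. DN3 is also the only library whose reads start at base 1, and whether the read start bears on the mix was not tested.

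**Figure D2:**
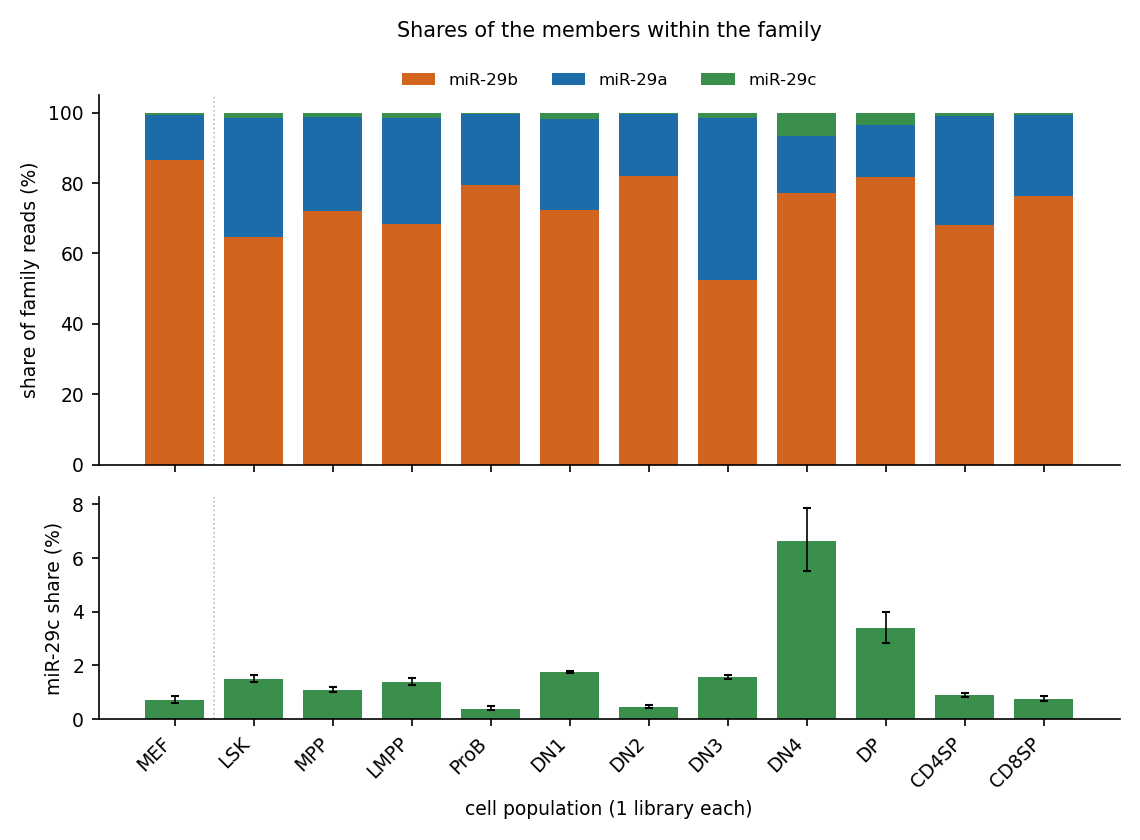
Share of each member among the reads of the family (%, upper plot) and the miR-29c share alone with its 95% Clopper-Pearson interval (lower plot), by library. miR-29a reaches 45.9% in DN3, and miR-29c reaches 6.62% in DN4 and 3.39% in DP while the other 10 libraries lie at or below 1.75%. Reads that start at base 4 or later make up 79.0% of miR-29c in DN4 and 73.5% in DP. Without such reads the miR-29c share in DN4 is 1.54%.

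Across the 8 libraries whose reads start at base 3, log2(RPM + 1) of miR-29a and miR-29c moved closely together (Pearson r = 0.996, n = 8), although they come from different chromosomes. The same value was 0.885 for miR-29a with miR-29b and 0.862 for miR-29b with miR-29c. Over all 11 blood-cell libraries the values were 0.550 for miR-29a with miR-29c, 0.819 for miR-29a with miR-29b and 0.657 for miR-29b with miR-29c. These are descriptions of libraries that differ in depth and in read start.

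Because miR-29a and miR-29c differ by 1 base, misread C of miR-29a could be counted as miR-29c. In the 11 libraries with both tables, perfect miR-29c reads numbered 1.95 (ProB) to 7.16 (DN1) per 100 perfect miR-29a reads. A C-to-T change at any of the other 4 C positions of miR-29a appeared at most 0.897 times per 100 such reads, in DN4, and at most 0.360 times in the other 10 libraries. Each read was also named by its bases at positions 10 and 18. In every library this gave back the deposited name for at least 99.2% of miR-29a, 99.0% of miR-29b and 95.2% of miR-29c reads. Such naming uses the same read bases, so it cannot detect a misread base.

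Levels were then compared between libraries in 15 pairs along the developmental order and against MEF. A miRNA was called higher or lower if its ratio exceeded 2-fold over the full 95% interval, given a minimum of 100 RPM and 10 reads on the higher side. With 1 library in each population no difference has a replicate check, and no p-value is given.

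**Figure D3:**
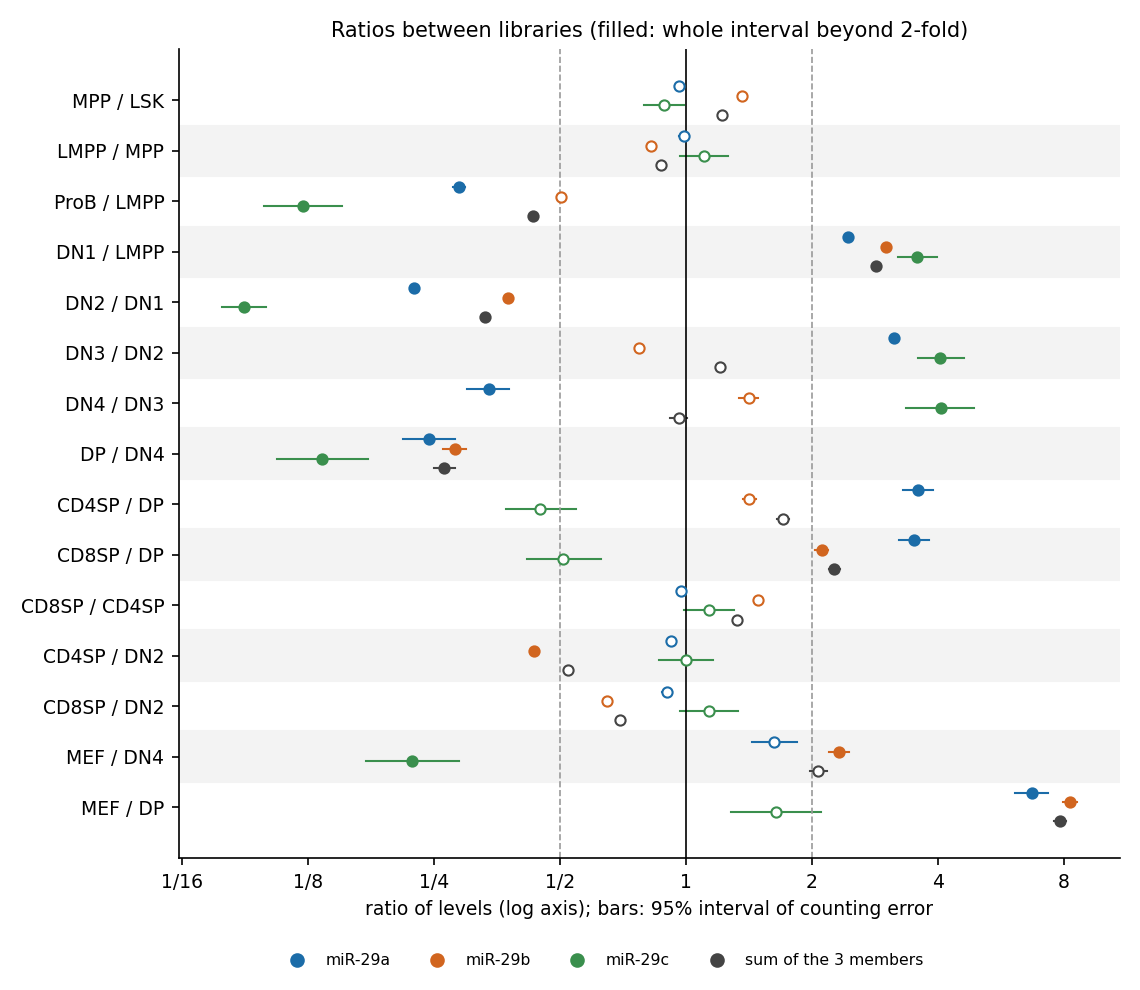
Ratio of the level of each member and of their sum in 15 pairs of libraries (first named over second named, log axis) with exact 95% intervals and dashed lines at 2-fold. Filled points pass the calling rule, which all 3 members do together in DN1 over LMPP, DN2 over DN1 and DP over DN4.

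No member was called among the bone marrow progenitors. The sum in MPP was 1.22 times that in LSK (1.20 to 1.23), and the sum in LMPP was 0.873 times that in MPP (0.860 to 0.886). The count was thus 0 of 3 members in either pair, where 2.14% of 140 and 14.8% of 155 miRNAs tested were called in either direction.

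In ProB cells, committed B cell precursors, the family was 2.31-fold lower than in LMPP (ratio 0.432, 0.425 to 0.440). miR-29c was 8.19-fold lower and miR-29a 3.48-fold lower, while miR-29b at a ratio of 0.503 (0.493 to 0.513) did not pass the rule. So 2 of 3 members were called lower, beside 30.6% of the 157 miRNAs tested. Scaled by the typical miRNA rather than by the total, the family ratio was 0.575 with median-of-ratios size factors and 0.6999 with TMM factors, which ends the call for the sum, while miR-29a and miR-29c kept theirs. miR-29b passed the rule with perfect matches only, at 0.472. The 3 erythroid markers summed to 78.6 RPM in ProB, against 4655 RPM in LMPP, and miR-223 stood at 65.3 RPM in ProB, against 10296 RPM in LMPP. Liver miR-122 stood at 28.6 RPM in ProB, against 4313 RPM in LMPP. For miR-126-3p, of endothelial and progenitor cells, the levels were 5160 RPM in ProB and 21752 RPM in LMPP. The part of other cell types in this difference was not tested.

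In DN1, the earliest thymic population, all 3 members were higher than in LMPP. The sum was 2.85-fold higher (2.81 to 2.88), with miR-29c 3.57-fold, miR-29b 3.01-fold and miR-29a 2.44-fold higher. Of the 158 miRNAs tested 9.49% were higher in DN1 and 38.0% were lower. The calls of all 3 members and of the sum held in each of 11 recounts by other scalings, read filters and naming rules, where the family ratio ran from 2.71 to 4.34. Both libraries had reads that start at base 3.

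DN1 also had high levels of miRNAs of mature lymphocytes and of myeloid cells. miR-150, which marks mature lymphocytes and is known to target Myb, stood at 46469 RPM in DN1, against 2549 RPM in LMPP. miR-223 stood at 17609 RPM in DN1, against 10296 RPM in LMPP. Of a list of 10 miRNAs known from lymphocytes, 6 were higher in DN1 than in LMPP (miR-150, miR-342-3p, miR-146a, miR-142-3p and miR-142-5p among them) and 1 was lower (miR-146b). The median log2 ratio of that list was 2.01, against -0.76 over all miRNAs tested. The 5 epithelial markers, all detected, summed to 766 RPM in DN1, against 320 RPM in LMPP, and the 3 erythroid markers to 835 RPM in DN1, against 4655 RPM in LMPP. Liver miR-122 stood at 5.86 RPM in DN1, against 4313 RPM in LMPP, and miR-126-3p at 1632 RPM, against 21752 RPM. The part of other cell types in the DN1 level of the family was not tested.

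In DN2, where thymocytes carry CD25, all 3 members were lower than in DN1. The sum was 3.02-fold lower in DN2 (ratio 0.331, 0.328 to 0.334). miR-29c was 11.4-fold lower, miR-29a 4.45-fold lower and miR-29b 2.67-fold lower, with 17.3% of the 139 miRNAs tested lower in DN2 and 20.9% higher. All 4 calls held in the 11 recounts, where the family was 2.54-fold to 3.40-fold lower. Of the lymphocyte list 7 of 10 were also lower and none was higher, among them miR-150 at 3099 RPM in DN2 against 46469 RPM in DN1 and miR-146a at 433 RPM against 7079 RPM. miR-223 stood at 869 RPM in DN2, against 17609 RPM in DN1.

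Between DN2 and DN3 the members parted. In DN3, the stage of beta selection, miR-29a was 3.13-fold higher (3.07 to 3.20) and miR-29c 4.05-fold higher (3.57 to 4.60) than in DN2, while miR-29b had a ratio of 0.773 (0.764 to 0.782) and was not called. The sum had a ratio of 1.20 and was not called, and under size factors and TMM factors it lay at 0.928 and 0.966. In this pair 31.9% of the 163 miRNAs tested were higher in DN3 and 14.1% were lower. Of the lymphocyte list 1 of 9 tested was higher in DN3 (miR-146b) and 3 were lower (miR-150, miR-342-3p and miR-146a). The 3 erythroid markers, all detected, summed to 4652 RPM in DN3, against 569 RPM in DN2. Reads start at base 1 in DN3 and at base 3 in DN2. The part of other cell types and of the read start in the split was not tested.

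In DN4, miR-29a was 2.96-fold lower than in DN3 (ratio 0.338, 0.301 to 0.379), miR-29b had a ratio of 1.41 and was not called, and miR-29c was 4.07-fold higher (3.36 to 4.88). The sum had a ratio of 0.961 (0.918 to 1.01). In this pair 36.4% of the 173 miRNAs tested were higher in DN4 and 28.3% lower. The miR-29c call rests on reads that start late: with reads from base 4 on left out of the miRNA and of the totals, its ratio was 0.867 (0.562 to 1.28). Under TMM factors it was 2.12 and not called, and the ratio of miR-29b was 0.737, so its direction depends on the scaling. Of the lymphocyte list 5 of 10 were higher in DN4 (miR-150, miR-342-3p, miR-146a and miR-142-3p among them) and 3 were lower (miR-155, miR-26a and miR-26b), with a median log2 ratio of 1.49, against 0.04 over all miRNAs tested. The erythroid markers summed to 552 RPM in DN4, against 4652 RPM in DN3. Their part in the result was not tested. DN4 has the fewest reads of all libraries.

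DP cells, which rearrange the T cell receptor alpha chain, had the lowest family level by RPM. All 3 members were lower in DP than in DN4, by 7.38-fold for miR-29c, 4.11-fold for miR-29a, 3.56-fold for miR-29b and 3.77-fold for the sum (ratio 0.265, 0.251 to 0.280). Of the 141 miRNAs tested 52.5% were lower in DP and 0.709% higher, and the median log2 ratio of all tested was -1.51, against -1.92 for the family. With median-of-ratios size factors the family ratio was 0.788 and with TMM factors 0.919, and none of the 3 members was then called. miR-181a took 553104 RPM in DP, against 219599 RPM in DN4, and the erythroid markers summed to 19.1 RPM in DP, against 552 RPM in DN4. The part of either in the lower RPM of the family was not tested. Of the lymphocyte list 2 of 10 were lower in DP (miR-342-3p and miR-146a) and none was higher.

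In CD4SP cells miR-29a was 3.59-fold higher than in DP (3.31 to 3.90), miR-29b had a ratio of 1.42 and the sum a ratio of 1.71 (1.65 to 1.76), neither of which was called. In CD8SP cells miR-29a was 3.50-fold higher (3.22 to 3.81), miR-29b 2.11-fold higher (2.04 to 2.19) and the sum 2.26-fold higher (2.19 to 2.34). In these pairs 45.1% of 142 and 50.0% of 152 miRNAs tested were higher than in DP, and 33.8% and 28.3% were lower. The miR-29a calls held in all recounts, 10 for CD4SP and 11 for CD8SP. The call for miR-29b in CD8SP was lost in 4 of 11 recounts, with ratios down to 1.31 where the totals left out the 3 most abundant miRNAs. The call for the sum in CD8SP was lost in 2 of 11, at 1.41 without those miRNAs in the totals and at 2.17 with libraries thinned. miR-29c had ratios of 0.449 in CD4SP and 0.510 in CD8SP against DP and was not called, and without reads from base 4 on these were 1.69 and 1.91. With the 3 most abundant miRNAs left out of the totals they were 0.319 and 0.317, and both were called lower. Of the lymphocyte list 7 of 9 tested in CD4SP and 7 of 10 in CD8SP were higher than in DP, and 2 were lower in each.

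No member was called between CD8SP and CD4SP cells. The ratio of CD8SP over CD4SP was 0.976 for miR-29a, 1.49 for miR-29b, 1.14 for miR-29c and 1.33 for the sum (1.31 to 1.34), with 15.2% of the 132 miRNAs tested called in either direction. Set against DN2, a library with the same read start, miR-29b was 2.30-fold lower in CD4SP (ratio 0.435, 0.429 to 0.441), where 34.5% of the 142 miRNAs tested were lower. That call was lost with size factors, with TMM factors and with all libraries thinned to the shallowest. The sum had a ratio of 0.524 in CD4SP and 0.695 in CD8SP over DN2, neither called. None of the 3 members was called in CD8SP over DN2, where 41.6% of the 149 miRNAs tested were called. For miR-29a the ratios over DN2 were 0.924 in CD4SP and 0.901 in CD8SP, and both were above 1 with size factors (1.37 and 1.18).

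MEF, the only cells here that are not of the blood, ranked between DN1 and the other 10 blood-cell libraries in the sum of the family by RPM. The scalings disagreed on MEF. With size factors MEF ranked above DN1, at 91567 RPM against 84705 RPM in DN1. With TMM factors MEF had 38286 RPM against 90113 RPM in DN1. Without the 3 most abundant miRNAs in the totals MEF had 60320 RPM against 90243 RPM in DN1. MEF was set against DP and DN4, whose reads also start at base 2. The family in MEF was 7.81-fold higher than in DP (7.55 to 8.09), with miR-29b 8.27-fold and miR-29a 6.69-fold higher and miR-29c at a ratio of 1.64 that was not called. In this pair 51.0% of the 200 miRNAs tested were higher in MEF. These calls held in the 11 recounts, where the family ratio ran from 3.16 to 8.51. Against DN4, miR-29b in MEF was 2.32-fold higher (2.20 to 2.45) and miR-29c 4.50-fold lower (3.49 to 5.80), while miR-29a at 1.63 and the sum at 2.07 (1.97 to 2.17) were not called. Here 35.5% of the 220 miRNAs tested were higher in MEF and 40.5% lower. The miR-29b call was lost without the 3 most abundant miRNAs in the totals (1.80) and with perfect matches only (1.97). The miR-29c call was lost with size factors (0.720), and also without reads from base 4 on (0.703), where miR-29c in MEF was 4.16-fold higher than in DP. miR-29a was called higher than in DN4 with size factors (5.27) and TMM factors (2.28), as was the sum (6.71 and 2.90).

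Late starts took a larger share of the reads of miR-29c than of miR-29a and miR-29b in MEF, DN4 and DP. In MEF 32.7% of miR-29c reads (24.8 to 41.4), in DN4 79.0% (70.7 to 85.9) and in DP 73.5% (65.3 to 80.7) began at base 4 or later. In the other 9 libraries this share was at most 0.713%. For miR-29a it was 0.554% in MEF, 10.8% in DN4 and 2.35% in DP, and for miR-29b 0.406%, 3.46% and 2.19% in the same libraries. No listed read was shorter than 18 nt, so reads from base 5 that ended before base 22 are not in these shares. Among perfect miR-29c reads that reach base 20 or beyond, 30.1% (MEF) to 61.9% (DP) ended at base 21 in MEF, DN4 and DP. In the other 9 libraries 41.3% (DN3) to 67.4% (CD8SP) did, so late reads may be missed there. All 43 late reads of miR-29c in MEF, all 96 in DN4 and all 100 in DP ended at base 22, the last base of the miRNA. Of these, 26 in MEF, 67 in DN4 and 79 in DP started at base 5. For those reads the shortest length listed allows no earlier end, so their shared end is not a result. The most frequent late read of miR-29c lacks the first part of the seed. It is given after the most frequent miR-29c read of MEF, DN1 and DN3, with the seed bases that remain in capitals and the letters as the tables write them:

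miR-29c in MEF: AGCACCAtttgaaatcggtta

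miR-29c in DN1: GCACCAtttgaaatcggtt

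miR-29c in DN3: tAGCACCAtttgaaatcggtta

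miR-29c in DN4 and DP: ACCAtttgaaatcggtta

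The last of these starts at base 5 and has 18 nt, the shortest length listed. It made up 59 reads, or 48.6% of miR-29c, in DN4 and 78 reads, or 57.4%, in DP. Among names with at least 100 reads, no other had a larger share of late reads in DN4 (61 names, median 0.132%) or in DP (86 names, median 0.155%), and 1 of 108 did in MEF. Its relatives also ranked high: 2 names in DN4 and 5 in DP lay above miR-29a, and 4 and 6 above miR-29b. In MEF 17 names lay above miR-29a and 21 above miR-29b. Late reads of miR-29b and miR-29c stood at 211 and 139 RPM in MEF, 773 and 1515 RPM in DN4, and 137 and 191 RPM in DP. Counting reads from bases 1 to 3 only, miR-29c stood at 287 RPM in MEF (88.5 reads), 402 RPM in DN4 (25.5 reads) and 68.7 RPM in DP (36 reads). These 3 libraries are the ones whose reads start at base 2, and the part of library making in the late reads was not tested.

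**Figure D4:**
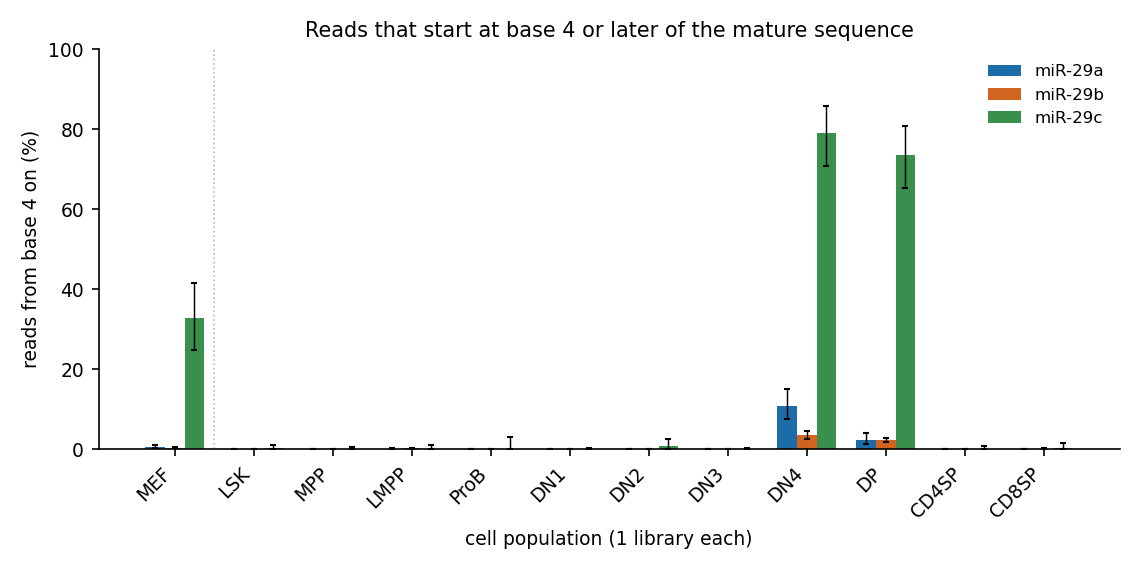
Share of the reads of each member that begin at base 4 of the mature miRNA or later (%), by library, with 95% Clopper-Pearson intervals. miR-29c reaches 32.7% in MEF, 79.0% in DN4 and 73.5% in DP and stays at or below 0.713% in the other 9 libraries. Reads shorter than 18 nt are not listed and so not counted.

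miR-29a had a 5' form of its own. In each of the 12 libraries 2.60% (DN3) to 6.48% (MEF) of its reads started 1 base before the base at which most reads of that library start. The same share was 0% to 0.159% for miR-29b and 0% to 0.942% for miR-29c. Among the blood-cell libraries LSK, MPP and LMPP had the highest shares of this form, at 5.83%, 5.17% and 5.31%. The shares in ProB, DN1, DN2, CD4SP and CD8SP, which have the same read start, lay between 2.71% and 3.68%. In DN3, whose reads start at base 1, this form begins 1 base before the mature sequence of RefSeq.

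The 3' ends differed by member and by library, counted over perfect reads that reach base 20 or beyond. miR-29b ended at base 23 in 92.3% of such reads in MEF, and in 61.7% (DN1) to 87.6% (ProB) in the blood-cell libraries. Most others ended 1 base short. That form took 5.26% in MEF, and within the 8 libraries that start at base 3 the bone marrow stages LSK, MPP, LMPP and ProB had 32.5%, 27.7%, 27.7% and 11.8% of it. The thymic stages DN1, DN2, CD4SP and CD8SP had 36.9%, 13.6%, 24.3% and 26.0%. ProB and DN2 thus stood below the other 6, and DN1 above them. The most frequent read of miR-29b and of miR-29a is shown for MEF and DN1, since their ends differ, with the seed bases that are present in capitals:

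miR-29b in MEF: AGCACCAtttgaaatcagtgtt

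miR-29b in DN1: GCACCAtttgaaatcagtgtt

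miR-29a in MEF: AGCACCAtctgaaatcggtta

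miR-29a in DN1: GCACCAtctgaaatcggtt

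miR-29a mostly stopped at base 21, 1 short of its end. The full length to base 22 made up 53.9% in MEF, 41.9% in DN3, 35.7% in DN4 and 20.1% in DP, and 9.06% (LSK) to 18.6% (DN2) in the 8 libraries that start at base 3. Base 22 is an A, so a read to base 21 with 1 added A cannot be told apart from the full length. The read start cannot be told apart from the population for MEF, DN3, DN4 and DP. Within the 8 libraries that start at base 3, full-length miR-29a was lowest in LSK and DN1, at 9.06% and 10.7%, where the short form of miR-29b was highest. It was highest in ProB and DN2, at 16.5% and 18.6%, where that form was lowest.

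Added bases were counted among reads that begin at the prevailing start and match the hairpin to their end or up to 1 or 2 last bases of A or T that it does not hold. Of these reads, those of miR-29a with added T made up 3.18% (ProB) to 7.59% (DN1) in the 8 libraries that start at base 3, against at most 1.34% in MEF, DN3, DN4 and DP. Of the miR-29b reads so counted, those with added A made up 11.6% in MEF (1659 of 14262.5 reads), 5.05% in DN4 and 4.01% in DP, and 0.392% to 2.13% in the other 9 libraries. Added T bases on miR-29b that match the Mir29b-2 hairpin cannot be seen as additions. The same holds for T added to miR-29a after base 20 or base 22, which matches the Mir29a hairpin. Perfect miR-29a reads ending at base 22 were most frequent in MEF, DN3 and DN4, at 53.9%, 41.9% and 35.7%. The part of this in their lower share of added T was not tested.

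**Figure D5:**
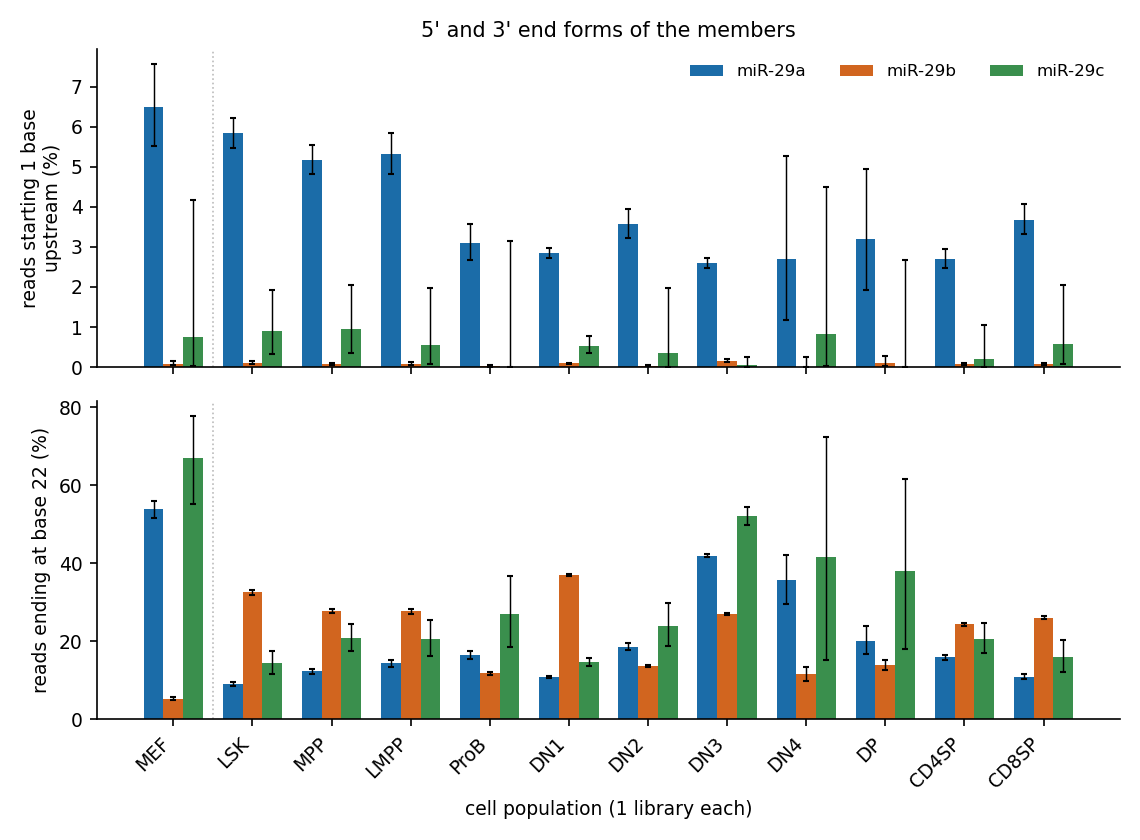
Upper plot: share of reads of each member that start 1 base upstream of the prevailing start of the library (%). Lower plot: share of perfect reads reaching base 20 or beyond that end at base 22 (%), both with 95% Clopper-Pearson intervals; miR-29a leads the upper plot with 2.60% to 6.48%.

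The other arm of the hairpins had fewer reads than the member in every library, and its highest level was that of Mir29a in MEF. The name miR-29a* held 275 reads in MEF (891 RPM, 789 to 1003), which is 11.7 for each 100 reads of miR-29a. In DN4 and DP it held 13 and 22 reads, or 4.39 and 3.70 per 100, and in the other 9 libraries 0.224 (CD4SP) to 0.511 (MPP) per 100. By RPM miR-29c* was highest in DN1, with 154 reads or 41.0 RPM (34.8 to 48.0), an interval that overlaps those of MEF, LMPP and DN4. Per 100 reads of miR-29c it was highest in MEF (8.37, 11 reads) and LMPP (7.45, 27 reads). In the other libraries it was 0.510 (DN3) to 4.63 (DN2) per 100. The name miR-29b* had at most 33 reads, in DN3. The passenger arms, with bases 2 to 8 in capitals, tell the clusters apart where the miR-29b reads cannot:

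miR-29a-5p: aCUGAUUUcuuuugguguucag

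miR-29b-1-5p: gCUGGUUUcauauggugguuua

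miR-29b-2-5p: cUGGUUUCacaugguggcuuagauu

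miR-29c-5p: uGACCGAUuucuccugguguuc

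Perfect reads of the 5p arm, counted over both tables (for CD4SP the mature table alone), came to 1367 RPM for Mir29a in MEF (422 reads, 95% interval 1239.7 to 1504). DN4 followed with 299.8 RPM (19 reads, 180.5 to 468), and the other 10 libraries held 6.45 RPM (CD4SP) to 63.1 RPM (DN1). For the copies of miR-29b they numbered at most 31 reads for Mir29b-1 (DN3) and at most 10 reads for Mir29b-2 (DN1) in any library. Mir29b-1 outnumbered Mir29b-2 in DN1 by 18 reads to 10 and in DN3 by 31 reads to 1, counts too low to assign miR-29b to a cluster.

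By a fixed rule, the 5 miRNAs whose log2(RPM + 1) was most like that of the summed family over the 11 blood-cell libraries were miR-101a (Pearson r = 0.760), miR-451 (0.745), miR-1839-5p (0.708), miR-144 (0.677) and miR-486 (0.672), out of 217 candidates. miR-101a stood at 79.1 RPM in DN1 and 15.3 RPM in DP, and at 192 RPM in DN3, so its highest library was not that of the family. miR-451, miR-144 and miR-486 are the 3 erythroid markers, which summed to 19.1 RPM in DP and to 4655 RPM in LMPP. The likeness rests on 11 libraries that differ in read start. Over the 8 that start at base 3 the values were 0.814 for miR-101a and 0.551 to 0.626 for the other 4.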

How the data were processed

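The deposited tables, 1 set per population, list each distinct sequence with its miRNA name, length, position and raw count of reads, per the file headers, with no normalisation by the authors. Per the labels' protocols, a gel fraction of 19 to 24 nt was used, and the adaptors join only RNA that carries both a 5' phosphate and a 3' hydroxyl group. The trimming, the aligner, its mismatch limit and the miRNA release were not given in the sources used here. A first table holds mature names, and a second holds hairpin names for 11 libraries. For CD4SP a second table is not used here. The tables of CD8SP were taken by the names they hold.

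Counts were summed per name, with a sequence under several names split equally, and divided by the library total to give RPM. Levels have exact Poisson, shares Clopper-Pearson and ratios exact conditional 95% intervals. The calling rule was applied to all miRNA names that met its floors. It was also run on simulated Poisson counts, which hold counting error only and cannot show how calls fare between repeat libraries. The text names the 3 members, their star forms and hairpins, the 5 most similar miRNAs among those at 100 RPM or more in at least 1 blood-cell library, members of the lymphocyte list at 1000 RPM or more, the cell type markers, and the 3 most abundant miRNAs, which one of the scalings leaves out. Members and lists were chosen with earlier results of these data known. Python 3.11.15, scipy 1.17.1 and, for other scalings of the counts, edgeR 4.0.16 and DESeq2 1.42.0 were used. The alternatives were 3 scalings, 8 ways of counting reads and rules of 1.5-fold and 4-fold. The recount without late reads was added after the data were seen.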

Additional observations from a re-analysis of the deposited data

Results flagged for a closer look

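The tables of hairpin names were not used for the levels of the members. They held 6153 reads of the 4 miR-29 hairpins over 11 libraries, a signal in data outside the main measurement. As a share of these reads and those of the 3 members together, this was 2.80% in MEF. It was 0.632% (DN2) to 1.77% (DN4) in the 10 blood-cell libraries. No outlier within a group could be looked for, since each population has 1 library.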

How the results depend on the processing

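Of 192 recounts of the 15 family ratios 172 kept their direction and their side of the rule, as did 511 of 576 recounts of member ratios. The scalings moved every log2 ratio of a pair by -1.31 (MEF over DP, TMM) to 1.79 (DP over DN4, TMM). No paired analysis was possible because each population has 1 library.

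The cause of the changes was not tested. With size factors and TMM factors, the family ratio was 0.575 and 0.6999 for ProB over LMPP and 0.788 and 0.919 for DP over DN4, no longer called, and 0.928 and 0.966 for DN3 over DN2, now below 1. For MEF over DN4 it was 6.71 and 2.90, now called, as it was at 2.33 with both tables added and at 2.25 without reads from base 4 on. For CD8SP over DP it was 1.41 without the 3 most abundant miRNAs (miR-16, miR-181a and miR-20a) in the total and 2.17 with libraries thinned, both not called. A rule of 1.5-fold added calls for CD4SP over DP (1.71), CD4SP over DN2 (0.524) and MEF over DN4 (2.07). A rule of 4-fold took those of ProB over LMPP (0.432), DN1 over LMPP (2.85), DN2 over DN1 (0.331), DP over DN4 (0.265) and CD8SP over DP (2.26).

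Member ratios that crossed 1 were these. With size factors and TMM factors, miR-29c in LMPP over MPP lay at 0.981 and 0.910, miR-29b in DN4 over DN3 at 0.869 and 0.737, miR-29a in CD4SP over DN2 at 1.37 and 1.27 and in CD8SP over DN2 at 1.18 and 1.1995. Without the 3 most abundant miRNAs in the total, miR-29a in CD4SP over DN2 lay at 1.04, miR-29c in CD8SP over CD4SP at 0.994 and miR-29c in MEF over DP at 0.732, and the last lay at 0.663 with TMM factors. Without reads from base 4 on, miR-29c lay at 0.867 in DN4 over DN3, 1.69 in CD4SP over DP and 1.91 in CD8SP over DP. miR-29a in CD8SP over CD4SP lay at 1.03 with perfect matches and 1.01 with libraries thinned. miR-29c in CD4SP over DN2 lay at 0.998 without shared sequences and at 0.916 by the bases that differ.

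Shares within the family stayed inside their intervals in 215 of 285 recounts. Of the 70 that did not, 21 came from libraries thinned to the shallowest. There a random draw at low depth was set against the interval at full depth, which sampling alone can leave. The largest moves were 5.29 and 5.09 percentage points, for miR-29b and miR-29c in DN4 without reads from base 4 on, where miR-29c came to 1.54%. Adding both tables could not be done for pairs with CD4SP. DN4 at 63386 reads limits what its pairs can show.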
